A study of Mus musculus with 9 samples.

Results

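The 9 macrophage identity genes Csf1r, Adgre1, Cd68, Lyz2, Mertk, Itgam, Fcgr1, Cx3cr1 and Mrc1 were followed in mouse bone marrow-derived macrophages exposed to lipopolysaccharide (LPS), a cell envelope molecule of Gram-negative bacteria that activates macrophages. They were chosen by name, and their rows were found by Ensembl identifier, 1 row for each gene among 22165 gene rows. The study sequenced messenger RNA of 9 libraries to ask what the loss of Irg1 (Acod1), the enzyme that makes itaconate, and the addition of itaconate do to activated macrophages. The 3 labelled groups hold 3 libraries each, all from C57BL/6N mice of 6 to 16 weeks and all collected 24 h after LPS at 100 ng/mL. The first group was wild type with LPS (WT). The second was Irg1-/- with LPS (KO), and the third was Irg1-/- with LPS followed, after 4 h, by itaconate at 1 mM (itaconate). A library is named below by its labelled group and replicate number, such as itaconate 3. How the Irg1 gene was inactivated is not given in the labels, and no group without LPS was analysed here. Whether replicates are separate animals, cultures or technical repeats is not labelled. The p-values therefore cover only the spread among these libraries, which may be technical.

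These genes mark different steps of macrophage life. Growth and survival depend on the receptor for colony-stimulating factor 1, which the lineage carries from its progenitors on, while chemokine and integrin receptors guide the cells. Surface receptors then bind antibody-coated particles, sugars or dying cells, and lysosomal proteins digest what is taken up. In mouse macrophages LPS is known to lower several of these surface markers, so they serve both to name the cell and to report its state.

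As a check of the cell type label, all 9 genes passed the filter on low counts, and their summed level ranged from 3336 to 10072 CPM (gene reads of a library scaled to a common total). The 9 dendritic cell markers summed to 1.84 to 4.65 CPM and the 10 B, T and NK cell markers in the table to 0.272 to 1.64 CPM, with Cd3e, Cd8a, Cd79a, Ncr1 and Nkg7 at 0 reads in every library. The 10 mast cell and erythroid markers summed to 0 to 1.73 CPM. The 12 neutrophil markers summed to 375 to 456 CPM in WT, 359.9 to 441 in KO and 267 to 404 in itaconate, and 8 of them passed the filter. S100a8, S100a9, Csf3r and Mmp8 had the most reads, whereas Ly6g and Mpo held 0 to 3 reads in a library, Elane 0 to 11 and Camp 0 to 16. The 8 fibroblast and stromal markers summed to 196 to 276 CPM in WT, 198 to 223 in KO and 168 to 264 in itaconate. Of these 6 passed, led by the collagen gene Col1a2, whereas Lum held 0 to 9 reads in a library, Thy1 0 to 5 and Pdgfra 1 to 24. The part of neutrophil or stromal RNA in the results below was not tested.

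Gene reads per library ranged from 7361671 to 20430359. The Irg1 level was out of step with the labels of 4 libraries, low in WT 1 and WT 2 and high in KO 3 and itaconate 3. By this level alone they are called the 4 contradicting libraries below. The Irg1 level was 4170.1 CPM in WT 3, 4421 in KO 3 and 6421 in itaconate 3, and between 0.877 and 12.9 CPM in the other 6 libraries. It was thus high in replicate 3 of each group. Libraries with the same label differed, with WT 1 and WT 2 at 11.3 and 9.14 CPM, and KO 1 and KO 2 at 7.53 and 12.9 CPM. The inactivation of Irg1 is not described, so these levels alone do not tell whether a label is wrong. What accounts for these levels was not tested. The library labelled itaconate 3 also stood apart across genes, as its log2 CPM correlated at 0.909 on average with the remaining 8 libraries, whose own averages were 0.939 to 0.954. In it 33.7% of reads lay outside annotated genes and 0.709% of gene reads were mitochondrially encoded, where the others had 23.1% to 28.4% and 1.27% to 2.57%. Folds of the members are followed below by values without some of these libraries, and every direction between groups is a direction between labels. Without the 4 contradicting libraries WT 3 is the only WT library left, so each such value against WT rests on it alone. The description label of each library holds a number before the barcode. That number is called the pool here, although the labels do not define it. Pool 1 holds WT 1 to 3, KO 1 and KO 2, pool 2 holds KO 3 and itaconate 1, pool 3 holds itaconate 2 and pool 4 holds itaconate 3. Without the 4 contradicting libraries, the KO libraries left are all of pool 1 and the itaconate libraries left of pools 2 and 3. Values of itaconate from that setting therefore do not separate label from pool.

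No macrophage identity gene passed the threshold in any of the 3 comparisons. The test was the edgeR quasi-likelihood F test over 10781 genes with Benjamini-Hochberg adjustment at 0.05, which called 0 of all genes (0%) in each comparison. DESeq2 called 1, 12 and 17 of all genes for KO against WT, itaconate against KO and itaconate against WT, and DESeq2 and limma-voom each called 0 of the 9 members. At an unadjusted p under 0.05 edgeR gave 0 of 9 members for KO against WT, where 3.13% of all genes tested did so, and 0 of 9 for itaconate against KO, where 8.3% did. It gave 2 of 9 for itaconate against WT, where 8.89% did. The median standard error of a member's log2 fold change was 0.36 to 0.37. Levels below are CPM scaled by the trimmed mean of M-values (TMM), and folds are log2 fold changes with their standard error (SE). The libraries were primed at the poly(A) tail and the counts are not per length, so levels are compared between libraries and not between genes.

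**Figure D1:**
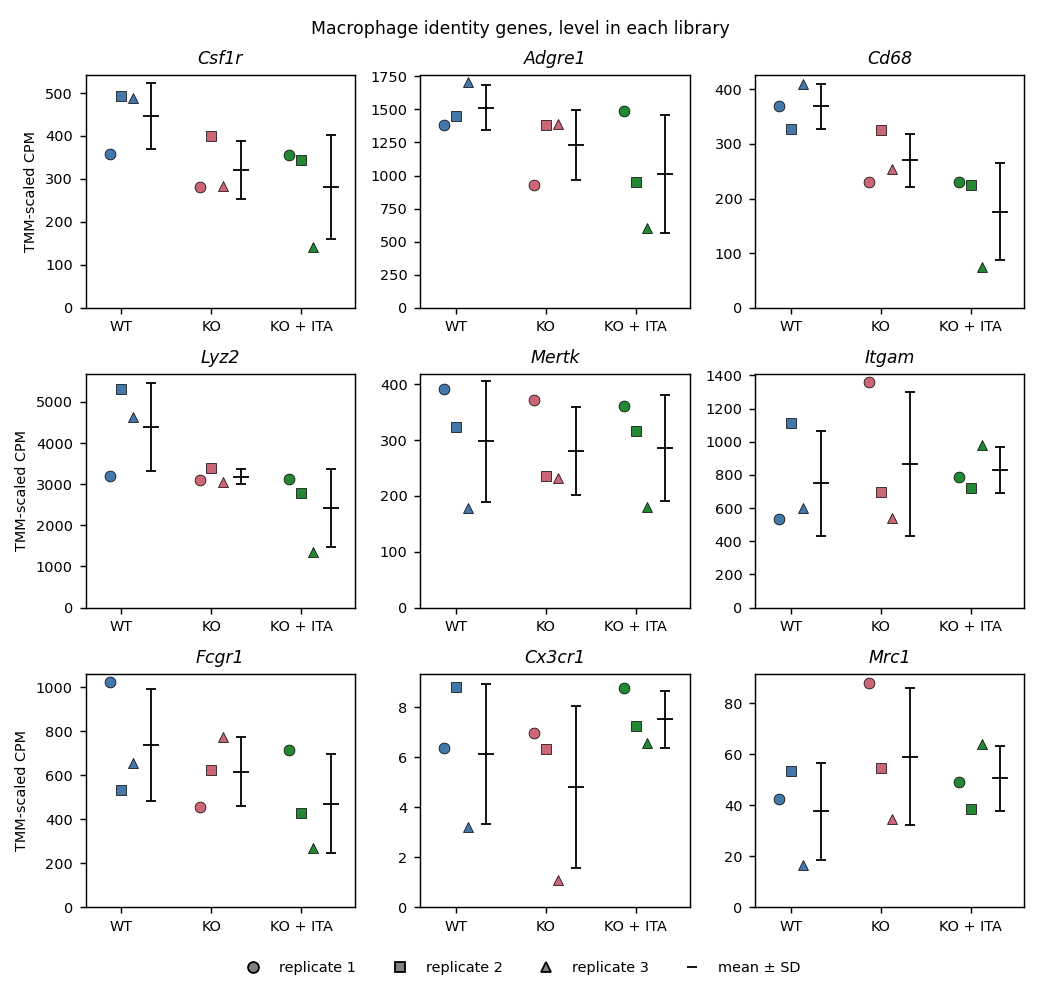
TMM-scaled CPM of the 9 genes (vertical axes from 0) in each library, by labelled group, with replicates 1 to 3 as circle, square and triangle and the group mean ± SD (n = 3) in black. Cd68 is the member whose 3 groups do not overlap, and for 5 of the 9 genes the lowest point is the triangle of the itaconate group.

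Cd68 and Lyz2 are the lysosomal members. Cd68 (ENSMUSG00000018774.13, GRCm38 chromosome 11, 69664213 to 69666153, minus strand) encodes a heavily glycosylated membrane protein of late endosomes and lysosomes. It was at 369, 328 and 410.2 CPM in WT 1 to 3, at 231, 325 and 253 in KO, and at 229.8, 225 and 74 in itaconate. The 3 groups did not overlap in any comparison, although KO 2 lay just below WT 2, and itaconate 1 just below KO 1. The group means were 369 ± 41.3, 269.7 ± 49.3 and 176 ± 88.6 CPM (SD, n = 3). The log2 fold change was -0.45 ± 0.36 for KO against WT (adjusted p = 0.995), -0.61 ± 0.36 for itaconate against KO (adjusted p = 0.674) and -1.06 ± 0.37 between itaconate and WT (adjusted p = 0.518, edgeR). The last value was -0.69 without itaconate 3 and -0.86 without the 4 contradicting libraries, the latter against WT 3 alone. Over all settings it ranged from -1.31 to -0.55, with adjusted p from 0.151 to 1. The value for itaconate against KO was -0.26 without itaconate 3 and -0.32 without the 4 libraries. In bulk RNA, fewer macrophages and less Cd68 RNA per macrophage cannot be told apart.

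Lyz2 (ENSMUSG00000069516.7, chromosome 10, 117277331 to 117282321, minus strand) encodes the M lysozyme, which cleaves the cell wall of bacteria. It was at 3205, 5318 and 4639.8 CPM in WT, at 3113, 3383 and 3046 in KO, and at 3132, 2789 and 1339 in itaconate. The 3 itaconate libraries lay below all 3 WT libraries, whereas KO 2 lay above WT 1. Its log2 fold change was -0.46 ± 0.32 for KO against WT, -0.39 ± 0.32 for itaconate against KO and -0.86 ± 0.32 between itaconate and WT (edgeR adjusted p = 0.995, 0.768 and 0.524). Without itaconate 3 the last 2 values were -0.11 and -0.56, and without the 4 contradicting libraries they were -0.16 and -0.65. Lyz2 has a close paralog, Lyz1, on the same chromosome: the longest coding transcripts of both genes were identical at 1211 of 1262 aligned bases (96%). Of 50-base windows of the Lyz2 transcript, 15.4% also occurred in the Lyz1 transcript. Reads that align equally well to both genes were set aside by the counter, so the Lyz2 level is less certain. Lyz1 itself held 9 to 46 reads in a library and lay between 0.987 and 3.69 CPM.

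The promoter windows of 2 genes whose itaconate libraries all lay below WT, Cd68 and Lyz2, and of 2 genes whose groups overlapped, Itgam and Mrc1, are shown to set their sequences beside their levels. Each holds 250 bases before and 50 after the RefSeq start, 5′ to 3′ on the gene's strand, in GRCm38.p6. Capitals mark the PU box, GAGGAA or its reverse complement TTCCTC, the core bound by the macrophage factor PU.1, which Spi1 encodes.
Cd68 (GRCm38.p6, chr11:69666121-69666420, minus strand): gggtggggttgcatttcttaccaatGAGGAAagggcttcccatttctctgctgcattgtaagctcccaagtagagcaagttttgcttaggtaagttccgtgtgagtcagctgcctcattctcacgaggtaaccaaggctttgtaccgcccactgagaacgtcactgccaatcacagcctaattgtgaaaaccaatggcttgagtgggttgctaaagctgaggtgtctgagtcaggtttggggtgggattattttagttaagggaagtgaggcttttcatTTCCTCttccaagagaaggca
Lyz2 (GRCm38.p6, chr10:117282223-117282522, minus strand): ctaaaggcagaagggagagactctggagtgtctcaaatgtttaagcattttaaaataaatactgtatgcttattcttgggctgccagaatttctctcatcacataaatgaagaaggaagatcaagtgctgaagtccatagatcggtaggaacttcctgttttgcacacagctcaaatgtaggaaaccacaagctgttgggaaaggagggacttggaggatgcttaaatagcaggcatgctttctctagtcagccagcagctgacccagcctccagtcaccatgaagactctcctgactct
Itgam (GRCm38.p6, chr7:128062390-128062689, plus strand): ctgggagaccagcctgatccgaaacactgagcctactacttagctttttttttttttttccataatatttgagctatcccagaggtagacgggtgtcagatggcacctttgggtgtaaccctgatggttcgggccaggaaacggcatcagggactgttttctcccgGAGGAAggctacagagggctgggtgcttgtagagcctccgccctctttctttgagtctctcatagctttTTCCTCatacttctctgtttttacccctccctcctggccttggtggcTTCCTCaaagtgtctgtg
Mrc1 (GRCm38.p6, chr2:14229164-14229463, plus strand): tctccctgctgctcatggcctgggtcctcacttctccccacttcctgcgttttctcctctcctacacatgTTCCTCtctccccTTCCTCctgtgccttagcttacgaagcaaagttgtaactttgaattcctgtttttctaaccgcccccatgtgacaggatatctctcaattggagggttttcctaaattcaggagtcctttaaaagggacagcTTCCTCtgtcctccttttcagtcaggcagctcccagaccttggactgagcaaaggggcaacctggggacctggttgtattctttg

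The PU box occurred 2 times in the Cd68 window, at 225 bases before the start and at base 30 after it, and 0 times in the Lyz2 window. It occurred 3 times each in the Itgam and Mrc1 windows, and 1 time in that of Fcgr1, 55 bases before the start. It occurred 0 times in the windows of Mertk and Cx3cr1, whose groups also overlapped. Of the 7 members with a window in the table, 4 held it, as did 28.3% of all 32851 promoter windows of 300 bases. The longer form GAGGAAGT, or ACTTCCTC on the other strand, was in 0 of the 7 and in 3.2% of all windows. The Cd68 window holds the motif and the Lyz2 window does not, and both genes had itaconate libraries below WT. A match is a description of letters and not a binding site. Spi1 itself was at 497, 290.5 and 300.2 CPM in WT, 331, 315 and 292 in KO and 281, 327 and 251 in itaconate, and its groups overlapped in each comparison.

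Csf1r and Cx3cr1 are the receptors for a growth factor and a chemokine. Csf1r (ENSMUSG00000024621.15, chromosome 18, 61100598 to 61132149, plus strand) encodes the tyrosine kinase that binds CSF1 and interleukin-34. It was at 357, 493 and 489 CPM in WT, at 281, 399.9 and 285 in KO, and at 356, 344 and 142 in itaconate. All 3 itaconate libraries lay below the lowest WT library, but itaconate 1 only just below WT 1, and KO overlapped both. Its log2 fold change was -0.67 ± 0.34 for itaconate against WT (edgeR adjusted p = 0.58), or -0.34 without itaconate 3, -0.49 without the 4 libraries and -0.07 with the pool as a term. For KO against WT it was -0.47 ± 0.34 (adjusted p = 0.995) and -0.37 to -0.66 when any 1 library was left out. For itaconate against KO it was -0.2 ± 0.34 (adjusted p = 0.9), and it was 0.11 without itaconate 3 and 0.014 without the 4 libraries, so that its sign depended on the libraries kept.

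The ligand gene Csf1 was at 53.7 ± 10.3 CPM in WT, 35.6 ± 7.38 in KO and 46 ± 22.1 in itaconate (SD, n = 3), with overlapping groups. The other ligand gene, Il34, held 0 reads in 7 libraries and 1 and 3 reads in KO 1 and KO 2. Cx3cr1 (ENSMUSG00000052336.6, chromosome 9, 119901616 to 120069879, minus strand) encodes the receptor of the chemokine fractalkine. It was the member with the fewest reads, 11 to 143 in a library. It was at 6.36, 8.82 and 3.21 CPM in WT, 6.99, 6.35 and 1.08 in KO and 8.77, 7.24 and 6.56 in itaconate. KO 3 was the lowest, at 11 reads, and WT 3 the next. The log2 fold changes were -0.34 ± 0.55, 0.63 ± 0.55 and 0.28 ± 0.55 for KO against WT, itaconate against KO and itaconate against WT (edgeR adjusted p = 0.995, 0.787 and 0.894). Without KO 3 the first was 0.13 and the second 0.16. With the pool as a term the last 2 were 3.01 ± 0.77 and 3.11 ± 0.87 (adjusted p = 0.779 and 0.998), values that rest on itaconate 1 and KO 3 of pool 2. With the 4 libraries left out the 3 values were 1.07, 0.24 and 1.31. Its annotated span overlaps 3 other genes of the table on the same strand, Gorasp1, Csrnp1 and Xirp1, so its count is less certain. Cx3cl1, the gene of its ligand, held 0 to 6 reads in a library.

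Adgre1 and Itgam encode adhesion receptors used to sort macrophages. Adgre1 (ENSMUSG00000004730.14, chromosome 17, 57358691 to 57483527, plus strand) encodes F4/80, an adhesion G protein-coupled receptor. It was at 1385, 1448 and 1707 CPM in WT, at 929, 1381 and 1389 in KO, and at 1486, 949 and 602 in itaconate. The low libraries were KO 1, itaconate 2 and itaconate 3, and all groups overlapped. Its log2 fold changes were -0.3 ± 0.32 for KO against WT, -0.28 ± 0.32 for itaconate against KO and -0.58 ± 0.32 between itaconate and WT (edgeR adjusted p = 0.995, 0.84 and 0.613). Without itaconate 3 the last 2 were -0.024 and -0.31, and without itaconate 1 they were -0.67 and -0.97. Without KO 1 the first was -0.13. The 3 values were -0.54, 0.053 and -0.49 without the 4 libraries.

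Itgam (ENSMUSG00000030786.18, chromosome 7, 128062640 to 128118491, plus strand) encodes CD11b, the alpha chain of the complement receptor integrin. It was at 535, 1110.3 and 601 CPM in WT, 1360.2, 699 and 538 in KO and 785, 719.6 and 982 in itaconate. KO 1 and WT 2 were high and the spread within WT and KO covered the itaconate libraries. The log2 fold changes were 0.21 ± 0.37, -0.06 ± 0.37 and 0.15 ± 0.37 for KO against WT, itaconate against KO and itaconate against WT (edgeR adjusted p = 0.995, 0.977 and 0.92). The first was -0.28 without KO 1 and 0.61 without WT 2. The last was -0.048 without WT 1 and 0.54 without WT 2. All 3 values were also taken without the 4 libraries, at 0.8, -0.48 and 0.32, and with the pool as a term 0.46, 0.54 and 1.00. Itgam overlaps an annotated gene on the same strand, Gm49368, which held 39 to 158 reads. Itgb2, the gene of its partner chain, was at 288, 341 and 372 CPM in WT, 236, 325 and 241 in KO and 244, 236 and 117 in itaconate. All 3 itaconate libraries lay below WT there, as for 7.25% of all genes. The Itgb2 log2 fold change was -0.74 ± 0.31 (edgeR adjusted p = 0.543), or -0.47 without itaconate 3 and -0.64 without the 4 libraries. The difference between Itgam and Itgb2 was not tested.

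Mertk, Mrc1 and Fcgr1 encode uptake receptors. Mertk (ENSMUSG00000014361.5, chromosome 2, 128698956 to 128802894, plus strand) encodes a receptor tyrosine kinase through which macrophages engulf dying cells. It was at 392, 323 and 179 CPM in WT, 371, 236 and 233 in KO and 362, 316 and 179.7 in itaconate. The group means were 298 ± 109, 280.0 ± 79.2 and 286 ± 94.8 CPM (SD, n = 3), and the log2 fold changes lay between -0.09 and 0.03 (edgeR adjusted p = 0.998, 0.989 and 0.967). Within each group the library labelled replicate 3 was the lowest, and these are the 3 libraries with the highest Irg1 levels, whereas KO 2 lay close to KO 3. Without the 4 contradicting libraries, which leaves WT 3 as the only library with its label, the Mertk log2 fold change was 0.78 ± 0.44 for KO against WT and 0.92 ± 0.45 for itaconate against WT, neither called. With the pool as a term the values for itaconate were 0.64 against KO and 0.66 against WT, and without itaconate 3 the value against WT was 0.19. Of its ligand genes, Gas6 lay between 20.2 and 37.7 CPM and Pros1 between 3.4 and 13.3 CPM. Both were lower in all 3 KO than in all 3 WT libraries, as for 2 of 5 tested partner genes and 5.76% of all genes. Their log2 fold changes were -0.29 ± 0.28 and -0.49 ± 0.38 (edgeR adjusted p = 0.995 for each). These were -0.24 and -0.13 without the 4 libraries.

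Mrc1 (ENSMUSG00000026712.3, chromosome 2, 14229392 to 14332057, plus strand) encodes the mannose receptor CD206, a lectin that interleukin-4 is known to raise in macrophages. It was at 42.6, 53.6 and 16.6 CPM in WT, 87.9, 54.5 and 34.7 in KO and 49, 38.7 and 64 in itaconate. WT 3 was the lowest and KO 1 the highest, 5.3-fold apart, and all groups overlapped. Its log2 fold changes were 0.65 ± 0.42 for KO against WT, -0.23 ± 0.41 for itaconate against KO and 0.42 ± 0.42 between itaconate and WT (edgeR adjusted p = 0.995, 0.909 and 0.771). The first was 0.25 without KO 1, 0.3 without WT 3 and 1 without WT 2. Without the 4 libraries it was 2.12 ± 0.5 (edgeR adjusted p = 0.163, the range over settings being 0.163 to 1), a value against WT 3 alone, with the spread taken from the other groups. The other 2 values without these libraries were -0.72 and 1.4, and with the pool as a term 0.50 and 1.41.

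Fcgr1 (ENSMUSG00000015947.10, chromosome 3, 96282909 to 96293969, minus strand) encodes CD64, the high-affinity receptor for immunoglobulin G. It was at 1022, 533 and 656 CPM in WT, 456, 622 and 773 in KO and 713, 429 and 270.4 in itaconate. WT 1 was high and itaconate 3 low, and all groups overlapped. The log2 fold changes were -0.26 ± 0.37, -0.39 ± 0.37 and -0.65 ± 0.37 for KO against WT, itaconate against KO and itaconate against WT (edgeR adjusted p = 0.995, 0.802 and 0.616). Without WT 1 the first was 0.054 and the last -0.34. Without itaconate 3 the last 2 were -0.12 and -0.36, and without itaconate 1 they were -0.82 and -1.08. Without the 4 libraries they were 0.061 and -0.2. Fcer1g, whose product is the signalling chain of CD64, was at 1459, 1642 and 2002 CPM in WT, 1012, 1513 and 1083 in KO and 1335, 1232 and 342 in itaconate. Its itaconate libraries all lay below WT, as for 7.25% of all genes. The Fcer1g log2 fold change was -0.81 ± 0.4 (edgeR adjusted p = 0.573), or -0.4 without itaconate 3 and -0.65 without the 4 libraries.

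**Figure D2:**
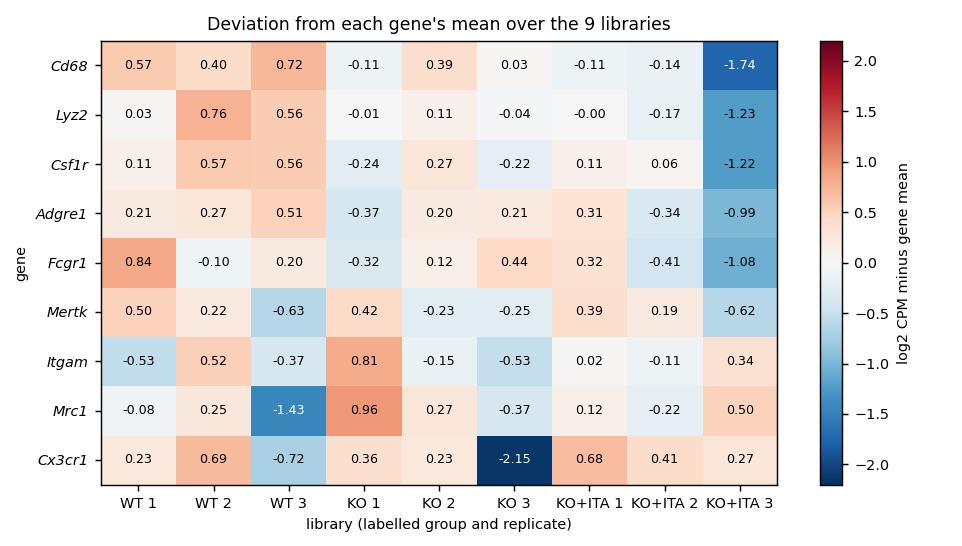
Log2 CPM of each gene minus its own mean over the 9 libraries (colour and number), with genes in rows and the 9 libraries in columns by labelled group and replicate (ITA, itaconate). Cd68, Lyz2, Csf1r, Adgre1 and Fcgr1 are lowest in itaconate 3, at -0.99 to -1.74, while Itgam, Mrc1 and Cx3cr1 lie above their means there.

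Set on a common scale, as log2 CPM minus each gene's own mean over the 9 libraries, the members shared no single pattern. Cd68, Lyz2, Csf1r, Adgre1 and Fcgr1 were all lowest in itaconate 3, between -0.99 and -1.74. Itgam, Mrc1 and Cx3cr1 lay above their own means in that same library, at 0.34, 0.5 and 0.27. Itaconate 3 was the lowest library for 5 of 9 members and for 26% of all genes tested, and it was the highest for 0 of 9 and for 19.8%. WT 2 lay above the gene's mean for 8 of 9 members, with a median of 0.4, and WT 1 for 7 of 9, with a median of 0.21. KO 2 and itaconate 1 were also above it for 7 of 9, and KO 3 and itaconate 2 for 3 of 9.

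With itaconate 3 included, the members varied more within labelled groups than most genes of like level. In that library Cd68, Lyz2, Csf1r, Adgre1 and Fcgr1 lay at -0.99 to -1.74 from their own means. The spread without that library was not computed. The pooled SD within groups, in log2 CPM, was 0.43 for Adgre1, 0.44 for Lyz2, 0.49 for Csf1r and 0.92 for Cx3cr1. Among genes whose mean lay within 0.5 of the same log2 level, the median SD was 0.4 for Adgre1, 0.35 for Lyz2, 0.36 for Csf1r and 0.52 for Cx3cr1. The share of such genes with a smaller SD was from 62.1% for Adgre1 to 93.1% for Cx3cr1. For Lyz2 it rests on 12 genes of like level.

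The genes nearest to each member over the 9 libraries were found by the root mean square difference of centred log2 CPM among 7290 genes of at least 10 CPM, or 7291 for Cx3cr1. For Adgre1 the nearest was Pfkl, at 0.06, and for Csf1r it was Nt5m, at 0.11. For Cd68 it was Dpm2, followed by Tnfrsf1a, each at 0.11, and for Lyz2 Rplp0 and H2-Ab1, each at 0.12. For Mertk and Itgam the nearest were Prmt5 and Ppp1r13b, each at 0.15. For Fcgr1 it was Gm49342, at 0.14. Mrc1 and Cx3cr1 had no close match, the nearest being Upf3a at 0.23 and Stard4 at 0.43. No member was among the 3 nearest of another member, but Cx3cr1, at 6.15 CPM on average, was not among the candidates.

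The comparison of KO with WT was labelled for the loss of Irg1, but Irg1 itself differed by a log2 fold change of 0.08 ± 2.35 between these labels (edgeR adjusted p = 0.999), with 1 library of high Irg1 level on each side. Between these labels 7 of 9 members were lower, with a median log2 fold change of -0.3. Among all genes tested 51.1% were lower and the median was -0.01. Groups did not overlap, with KO lower, for 1 of 9, Cd68, and for 5.76% of all genes, and with KO higher for 0 of 9 and for 4.85% of all genes. Within pool 1, 5 of 9 were lower and the median was -0.37, with Cd68 at -0.39, Csf1r at -0.37 and Mrc1 at 0.94. Without the 4 contradicting libraries 5 of 9 were lower, with a median of -0.26.

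The comparison of itaconate with KO was labelled for itaconate added to Irg1-/- cells, but each side holds 1 library of high Irg1 level, itaconate 3 and KO 3. Between these labels 7 of 9 members were lower and the median was -0.23. Among all genes 51.6% were lower and the median was -0.02. Groups did not overlap, with itaconate lower, for 1 of 9, Cd68, and for 5.29% of all genes, and with itaconate higher for 0 of 9 and for 5.61%. Without itaconate 3 the median was -0.11 with 6 of 9 lower, and without the 4 libraries it was 0.01 with 4 of 9 lower. With the pool as a term, which compares only itaconate 1 with KO 3 of pool 2, the median was 0.32 with 2 of 9 lower.

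Between the libraries labelled itaconate and WT, 6 of 9 members were lower and the median was -0.58, where 50.9% of all genes were lower with a median of -0.01. Groups did not overlap, with itaconate lower, for 3 of 9, Cd68, Csf1r and Lyz2, and for 7.25% of all genes, and with itaconate higher for 0 of 9 and for 7.3%. WT and itaconate libraries never share a pool, so there is no value within 1 pool. With the pool as a term, which links these labels through the KO libraries of pools 1 and 2, the median was -0.07 with 5 of 9 lower. Without itaconate 3 the median was -0.31 with 5 of 9 lower, and without itaconate 1 it was -0.88. Without the 4 libraries, and so against WT 3 alone, it was -0.2 with 5 of 9 lower. The WT libraries are shared with the first comparison and the KO libraries with the second, so the 3 sets of values are not independent.

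**Figure D3:**
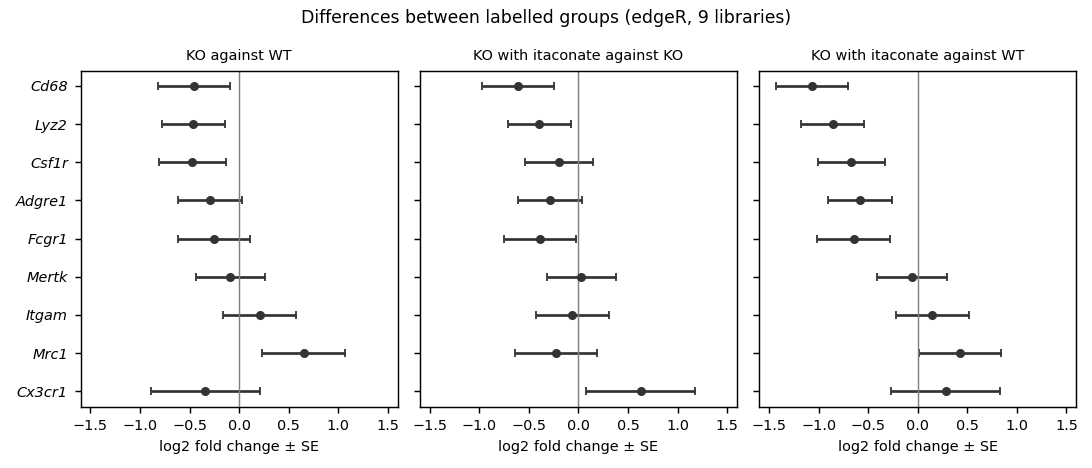
Log2 fold change ± SE (horizontal axes) of the 9 genes (rows) from 1 edgeR fit of the 9 libraries, with 1 panel for each comparison of labelled groups. Cd68 for itaconate against WT lies farthest from 0, at -1.06 ± 0.37, and no gene passed the threshold in any panel.

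**Figure D4:**
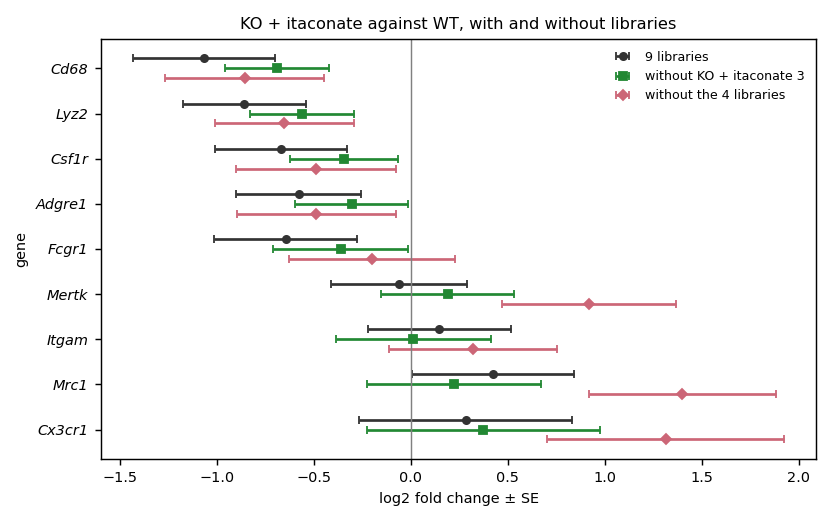
Log2 fold change ± SE for itaconate against WT (horizontal axis) of the 9 genes (rows) in the fit of 9 libraries (circles), without itaconate 3 (squares) and without the 4 libraries whose Irg1 level is out of step with their labels (diamonds). The diamonds compare with WT 3 alone. Cd68 moves from -1.06 to -0.69 and -0.86, and Mertk from -0.06 to 0.19 and 0.92.

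The wider macrophage programme was read from 5 further lists, chosen with earlier results of these data known. None of their 67 tested genes passed edgeR in any comparison. Of 12 transcription factors of the lineage, 8 were higher in each comparison, with medians of 0.14 for KO against WT, 0.1 for itaconate against KO and 0.31 between itaconate and WT. In the last comparison 3 of the 12 had itaconate libraries all above WT, where 7.3% of all genes did. Among these was Cebpb, a factor of inflammatory gene expression, at 526, 609 and 866 CPM in WT, 342, 607 and 1746 in KO and 1961, 1506 and 1987 in itaconate. Its log2 fold change for itaconate against WT was 1.45 ± 0.46 (edgeR adjusted p = 0.515), or 1.39 without itaconate 3 and 1.00 without the 4 libraries. All pool 1 libraries lay between 342 and 866 CPM. Those of pools 2 to 4, KO 3 among them, lay between 1506 and 1987. These fold changes therefore do not separate label from pool.

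Of 22 other surface genes, 16 were lower for KO against WT, 12 for itaconate against KO and 15 between itaconate and WT, with medians of -0.22, -0.03 and -0.17. Fcgr3, a low-affinity receptor for immunoglobulin G, was at 604, 503 and 352 CPM in WT, 581, 499 and 318 in KO and 342, 225 and 113 in itaconate. Its itaconate libraries lay below all WT libraries, as for 7.25% of all genes, but overlapped KO. The log2 fold changes were -1.10 ± 0.38 against WT and -1.04 ± 0.38 against KO (edgeR adjusted p = 0.518 and 0.523). These were -0.77 and -0.73 without itaconate 3, and -0.31 and -0.95 without the 4 libraries. Cd200r1, an inhibitory receptor, had the smallest p of this list for KO against WT, at -1.02 ± 0.39, where WT 1 was at 157 CPM and the other 8 libraries between 37.3 and 67.9, and it was -0.45 without the 4 libraries. Clec7a, the beta-glucan receptor, was at 219 CPM in itaconate 3 and between 34.3 and 78.2 elsewhere.

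Of 11 tested uptake and scavenger receptors, 9, 6 and 8 were lower in the 3 comparisons in the same order. Marco, a scavenger receptor for bacteria, was at 198, 183 and 185 CPM in WT, 129.6, 181 and 128 in KO and 147, 119.8 and 88.1 in itaconate. Of 17 secretory and phagolysosomal genes, 13, 5 and 13 were lower. C1qa, a chain of the complement component C1q, was at 473, 480 and 406 CPM in WT, 264, 315 and 423 in KO and 618, 548 and 477 in itaconate. Itaconate lay above KO without overlap, as for 5.61% of all genes (log2 fold change 0.71 ± 0.27, edgeR adjusted p = 0.523, and 0.98 without the 4 libraries). Itaconate and WT overlapped, at 0.27 ± 0.27. For the other C1q chains, C1qb and C1qc, itaconate and KO overlapped, at 0.15 ± 0.32 and 0.19 ± 0.3. Lamp2, the gene of another membrane protein of lysosomes, was at 712, 645 and 1023 CPM in WT and at 840.2, 1787 and 5435 in itaconate, so its value against WT of 1.76 ± 0.55 (edgeR adjusted p = 0.515) rested on itaconate 3. It was 0.73 without that library and 0.35 without the 4 libraries.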

How the data were processed

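Messenger RNA of 9 libraries was measured. Per the labels' protocols, it was captured on oligo-dT beads, copied with barcoded oligo-dT primers, pooled and amplified into strand-specific libraries, with no molecular identifier mentioned, so intervals of counting cannot account for copies of 1 molecule. The deposited table holds the authors' unnormalized counts of reads for each gene. The submitters' processing notes name STAR, HTSeq and mm10. For versions, annotation and filters the sources used here give nothing. The 5 summary lines of the counter stayed out of library sizes and tests. They held 23.1% to 33.7% of reads outside genes, 17.1% to 20% with several alignments and 0.275% to 0.441% ambiguous. At these depths 3 reads correspond to 0.147 to 0.408 CPM.

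Symbols were assigned to 21745 of 22165 rows, and positions come from GENCODE M21 (GRCm38, the build of mm10). Counts were filtered with a minimum count of 10, scaled by TMM and tested two-sided in 1 fit of the 9 libraries with group as the only term (edgeR 4.0.16, run in R 4.3.3). CPM over marker lists use raw gene reads. The SE is the fold change divided by the root of the quasi-likelihood F. DESeq2 1.42.0, limma-voom (limma 3.58.1), other scalings, no filter, pool and block terms and left-out libraries were alternatives. For partner and list genes, the values without itaconate 3 or without the 4 libraries were added after seeing the data. The fit was also run on simulated counts with known changes, drawn independently for each library and without pools. How many of these changes it recovered is not reported here. Members and lists were chosen with earlier results of these data known. Besides the 9 members, all their partner genes were named, and in each further list genes of at least 10 CPM among the 3 smallest p of a comparison. Spi1 was named as well because the promoter motif belongs to its product. Not every gene that this rule gives is reported here. The number before the barcode in the description label was read as the pool. No replicates held identical values. Promoter windows are RefSeq sequences, found for 7 of the 9 members.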

Additional observations from a re-analysis of the deposited data

How the results depend on the processing

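Of 495 member values recomputed under 19 other settings, 456 kept their sign and stayed uncalled, 39 changed sign and none became called. Cd68 kept its sign in all 3 comparisons and all settings. The members called stayed at 0 everywhere. Over all genes, DESeq2 called 1, 12 and 17 for KO against WT, itaconate against KO and itaconate against WT. Without the 4 libraries edgeR called 217 for the second comparison. There KO 1 and KO 2, both of pool 1, were set against itaconate 1 of pool 2 and itaconate 2 of pool 3. This count therefore does not separate label from pool. Counts against WT are not given for this setting, because WT 3 alone then held that label. Without a filter edgeR called 80 for the second comparison and 92 for the last. Leaving out 1 library gave 0 to 6 and 0 to 4 for these last 2, and 0 for KO against WT. The causes were not tested.

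For KO against WT, Mertk was 0.027 with the pool as a term, 0.048 in pool 1 only and 0.78 without the 4 libraries, and Cx3cr1 was 0.10, 0.12 and 1.07. Leaving out 1 library moved Mertk from -0.35 to 0.16, Fcgr1 from -0.44 to 0.054, Cx3cr1 from -0.71 to 0.13 and Itgam from -0.28 to 0.61. For itaconate against KO, Mertk was -0.030 with gene-read totals, and Itgam 0.034 by limma-voom. With the pool as a term Csf1r was 0.32, Adgre1 0.097, Lyz2 0.040, Itgam 0.54 and Mrc1 0.50, and without the 4 libraries Csf1r was 0.014, Adgre1 0.053 and Fcgr1 0.061. Leaving out 1 library moved Csf1r from -0.41 to 0.11, Mertk from -0.18 to 0.28, Itgam from -0.33 to 0.42 and Mrc1 from -0.51 to 0.18. For itaconate against WT, Mertk was 0.66 with the pool as a term and 0.92 without the 4 libraries. Leaving out 1 library moved it from -0.32 to 0.19, Itgam from -0.048 to 0.54 and Cx3cr1 from -0.019 to 0.65. Scaling by gene-read totals shifted the median of all genes to -0.11 in that comparison and that of the members to -0.66.

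Same-numbered libraries of KO and WT had deviations correlated at 0.029 to 0.24, and differently numbered ones at -0.3 to 0.22. For itaconate and KO these ranges were -0.16 to 0.17 and -0.27 to 0.21, and for itaconate and WT -0.079 to -0.018 and -0.11 to 0.15. The ranges overlapped in each comparison, and the numbers were not taken to pair libraries. With the replicate number as a block edgeR called 0 genes and 0 members in each comparison, and for itaconate against KO Mertk was -0.0087 and Itgam 0.00046.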
